A study of Mus musculus with 2 samples.

Results

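The enzymes that build triglyceride from glycerol phosphate were followed through 10 genes, Gpam, Agpat1, Agpat2, Agpat3, Agpat5, Lpin1, Lpin2, Lpin3, Dgat1 and Dgat2, of 43346 annotated genes in the tables. They were chosen by symbol for their enzymatic role and not by a measured value, though earlier results of these data were known. All 10 were found. The RNA came from tissue labelled as subcutaneous fat pad of C57BL/6J mice, from littermates of both sexes aged 8 weeks, with no treatment or genetic change named. Polyadenylated RNA was sequenced in 2 stranded libraries, which the labels give as biological replicate 2 and biological replicate 1, with 1 group in all. The labels pool males and females and list a tissue sample for each library, both tied to the same donor entry. There were no conditions to compare, so the data show which enzymes of the pathway were transcribed and how much the libraries differed. No test was possible with 1 library on each side.

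In this pathway a glycerol phosphate acyltransferase (GPAT) adds a fatty acid to glycerol phosphate and makes lysophosphatidate. An acylglycerol phosphate acyltransferase (AGPAT) adds another and makes phosphatidate, a lipin removes the phosphate to give diacylglycerol, and a diacylglycerol acyltransferase (DGAT) adds the last fatty acid. White adipocytes store the product in their lipid droplet. Loss of AGPAT2 in humans, or of lipin-1 in the mouse, leaves the body with little fat tissue.

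All 10 genes were transcribed in both libraries, at levels that ran from 6.82 TPM for Lpin2 to 2625 TPM for Dgat2 on average, where TPM is the number of transcripts per 1e6 transcripts. A TPM of at least 1 was reached in both libraries by all 10, against 29.4% of all annotated genes. Together they held 0.637% of TPM in replicate 2 and 0.344% in replicate 1. Their summed level was 6366.64 TPM in replicate 2 and 3436.17 TPM in replicate 1, and Dgat2 alone gave more than all the others combined in replicate 2 but less than the others combined in replicate 1. The last step was the most abundant and the lipin step the least: DGAT genes summed to 2988 ± 1702 TPM, AGPAT genes to 1632 ± 380 TPM, Gpam stood at 180 ± 36.9 TPM and lipin genes summed to 101 ± 27.3 TPM (SD, n = 2). These are transcript levels per length, and differences between steps say nothing of enzyme amount.

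**Figure D1:**
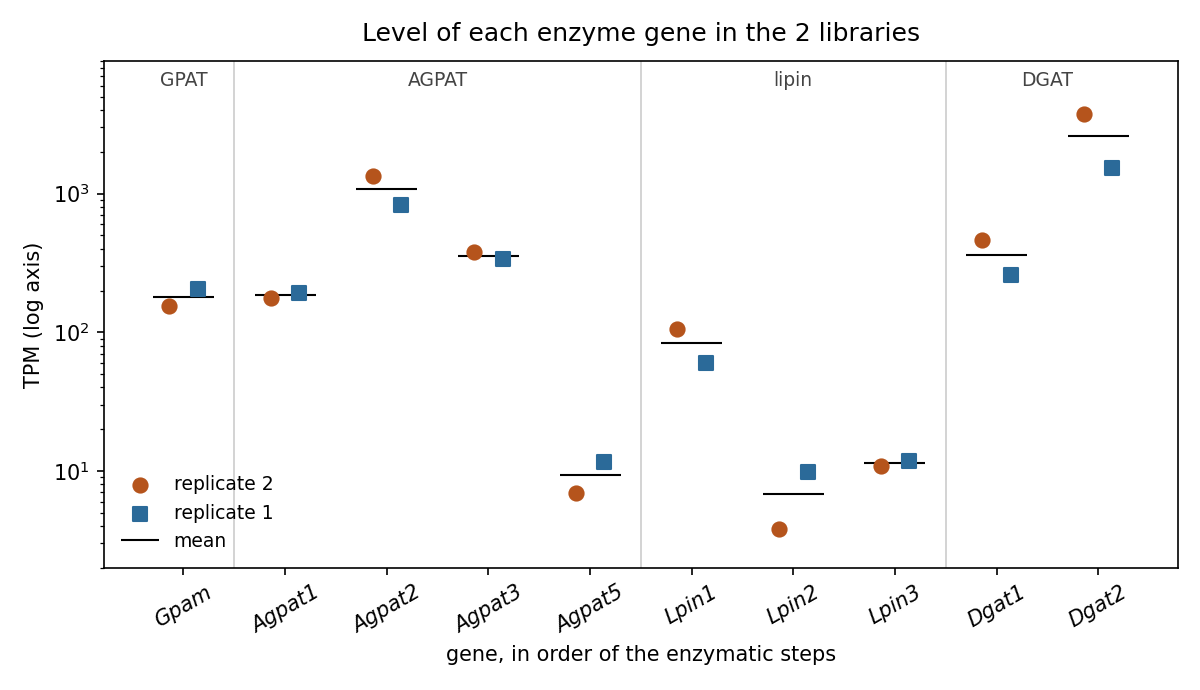
TPM (log axis) of the 10 genes in order of the enzymatic steps, with replicate 2 as circles on the left, replicate 1 as squares on the right and the mean of the 2 libraries as a line. Dgat2 and Agpat2 lie above all other genes in both libraries, and Agpat5, Lpin2 and Lpin3 lie below all others in both.

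In order of mean level the genes were Dgat2, Agpat2, Dgat1, Agpat3, Agpat1, Gpam, Lpin1, Lpin3, Agpat5 and Lpin2. The ranges of Dgat1 and Agpat3 overlapped, as did those of Agpat1 and Gpam, and both pairs changed places between the libraries. The range of Agpat5 overlapped those of Lpin3 and Lpin2, although the 3 genes had the same order in each library. The other neighbours did not overlap.

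Markers of several cell types differed between the libraries. The 10 listed adipocyte markers included the adiponectin gene Adipoq and the lipid droplet coat gene Plin1. Together they summed to 39586.5 TPM in replicate 2 and 19607.2 TPM in replicate 1. By the scaled count ratio defined below, all 10 were called over 2-fold higher in replicate 2. The lowest ratio was 2.04, for Cfd, the most abundant, at 16533 TPM in replicate 2 and 12566 TPM in replicate 1. All marker calls here used that scaling only, and no share of all genes called at their count filter is given beside them. Adipocyte markers were thus present in both libraries, and the fat depot they came from was not tested. The 13 listed markers of glandular epithelium summed to 14.29 TPM in replicate 2 and 778.01 TPM in replicate 1. Among them the milk protein genes Csn2 and Wap had a count of 0 in both. Csn3 had a count of 0 in replicate 2 and 1 in replicate 1, and Lalba 2 in replicate 2 and 14 in replicate 1. The 6 smooth muscle markers summed to 655.28 TPM in replicate 2 and 5400.25 TPM in replicate 1, and the 5 mesothelial markers to 61.99 TPM in replicate 2 and 284.07 TPM in replicate 1. Of these 5, 3 were higher in replicate 1 and 0 in replicate 2, and Msln and Upk3b did not pass. The mesothelial sum leaned on Wt1, at 10.98 TPM in replicate 2 and 140.26 TPM in replicate 1. Of 6 endothelial markers, 4 were higher in replicate 2 and 0 in replicate 1, and of 7 macrophage markers none passed in either direction. Of 7 fibroblast and progenitor markers 1 was higher in replicate 2 and 2 in replicate 1, of the 5 skeletal muscle markers with enough counts 1 was higher in replicate 2 and 3 in replicate 1, and of 6 hepatocyte markers 2 were higher in replicate 2 and 3 in replicate 1. In tissue RNA, fewer cells of a type and less RNA per cell cannot be told apart. The part of cell content in the differences between libraries was not tested.

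Ratios are replicate 2 over replicate 1, computed on counts scaled with TMM (trimmed mean of M-values), with a 95% interval for the counting error alone. Genes whose scaled counts averaged 100 or more were called over 2-fold apart where this interval lay wholly beyond 2-fold. This held for 4 of the 10 genes, Agpat2, Lpin1, Dgat1 and Dgat2, all higher in replicate 2, where 10.6% of the 13403 genes compared were called. None was called higher in replicate 1, where 12.5% of all genes were called, and 23.1% of all genes were called in either direction. The median log2 ratio of the 10 genes was 0.65, with a range of -0.52 to 1.93, and that of all genes compared was 0.04. The 10 adipocyte markers had a median log2 ratio of 2.16. Within the ratios of all genes, Dgat2 lay at the percentile 97.0, Lpin1 at 94.0, Agpat2 at 92.4 and Dgat1 at 91.6, while Gpam lay at 59.7, Agpat5 at 43.9 and Lpin2 at 25.1. The count of 4 depended on the scaling: with the total count or with the spike-ins it was 1, Dgat2, and the median of all genes then moved to -0.48 and -0.42.

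**Figure D2:**
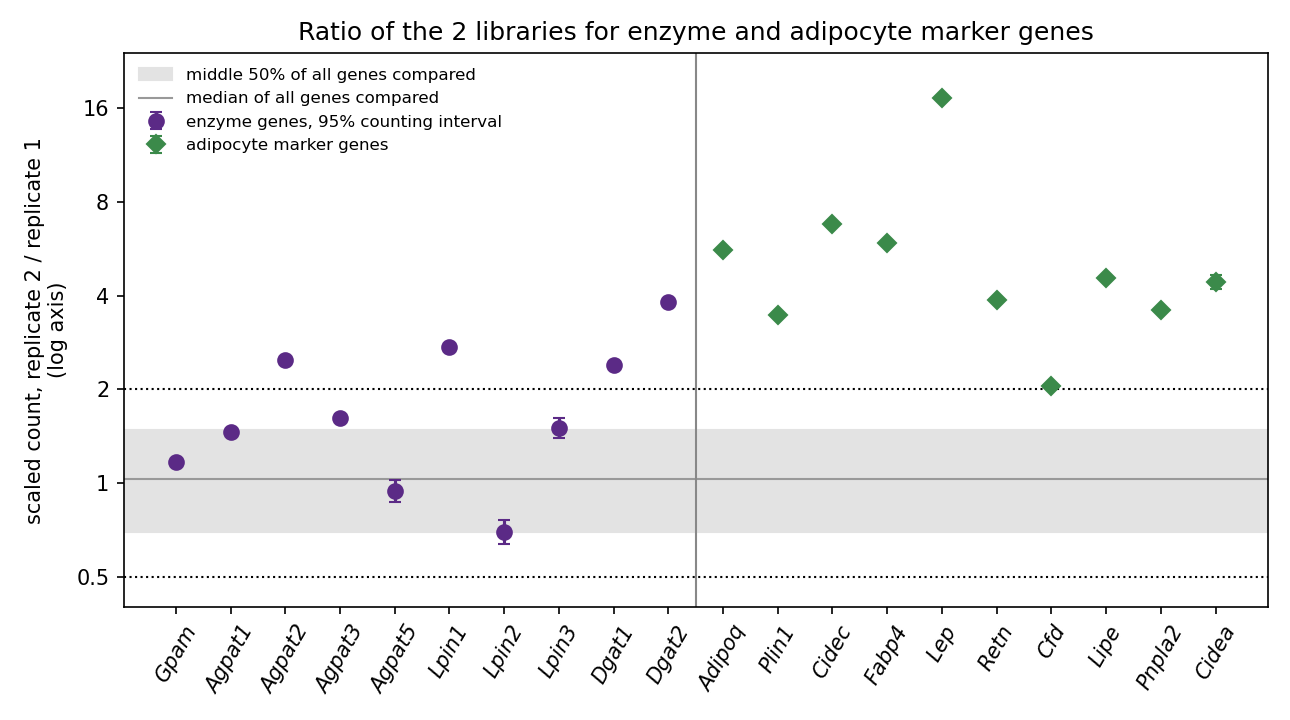
Ratio of scaled counts, replicate 2 over replicate 1 (log axis), for the 10 enzyme genes (circles) and 10 adipocyte markers (diamonds), with 95% counting intervals; the grey band holds the middle 50% of all 13403 genes and dotted lines mark 2-fold. Agpat2, Lpin1, Dgat1 and Dgat2 lie above the upper dotted line, as do all 10 adipocyte markers.

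The first step was represented by Gpam, which encodes the GPAT of the outer mitochondrial membrane (ENSMUSG00000024978.10, GRCm38 chromosome 19, 55067268 to 55127238, minus strand). Gpam stood at 154.39 TPM in replicate 2 and 206.59 TPM in replicate 1, from 24642 and 28108 counts. Its TPM was lower in replicate 2, yet its scaled count ratio was 1.17 (1.15 to 1.19), a log2 ratio of 0.22. The direction for Gpam thus depended on scaling, and it was -0.29 with the total count and -0.23 with the spike-ins. Relative to Gpam, the most abundant genes of the later steps stood higher in replicate 2. Dgat2 was 24.1 times Gpam in TPM in replicate 2 and 7.38 times in replicate 1, and Agpat2 was 8.68 times Gpam in replicate 2 and 3.99 times in replicate 1. These quotients are free of library scaling. The other GPAT genes were lower than Gpam, with Gpat3 at 38.67 TPM in replicate 2 and 18.01 TPM in replicate 1 and Gpat4 at 29.36 TPM in replicate 2 and 26.18 TPM in replicate 1. Both encode enzymes of the endoplasmic reticulum. Gpat3 was over 2-fold higher in replicate 2, at a ratio of 3.45 (3.27 to 3.65), and Gpat4 did not pass, at 1.75 (1.68 to 1.83).

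Agpat2 held most of the AGPAT transcripts. It encodes the AGPAT of the endoplasmic reticulum whose loss causes generalized lipodystrophy in humans (ENSMUSG00000026922.9, chromosome 2, 26593057 to 26604417, minus strand). Agpat2 had 1340.09 TPM in replicate 2 and 823.4 TPM in replicate 1, from 72192 and 38797 counts, a ratio of 2.48 (2.45 to 2.51). It ranked 77th of all annotated genes by TPM in replicate 2 and 148th in replicate 1. Agpat2 took 70.5% of the TPM of the 4 AGPAT genes in replicate 2 and 60.4% in replicate 1.

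The other AGPAT genes did not pass 2-fold. Agpat3, whose enzyme also acts on lysophospholipids, was at 376.95 TPM in replicate 2 and 335.79 TPM in replicate 1, a ratio of 1.62 (1.59 to 1.66), on chromosome 10, 78269178 to 78352489. Agpat1, a widely expressed AGPAT gene (chromosome 17, 34604262 to 34613449), was at 176.38 TPM in replicate 2 and 192.67 TPM in replicate 1. Agpat1 had a scaled count ratio of 1.46 (1.42 to 1.50), while its TPM was lower in replicate 2. Agpat5, which encodes a mitochondrial member of the family (chromosome 8, 18846277 to 18891361), was low in both libraries, at 6.98 TPM in replicate 2 and 11.67 TPM in replicate 1, and its interval of 0.871 to 1.03 included a ratio of 1. Agpat3 took 19.8% of the step's TPM in replicate 2 and 24.6% in replicate 1, and Agpat5 0.367% in replicate 2 and 0.856% in replicate 1.

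**Figure D3:**
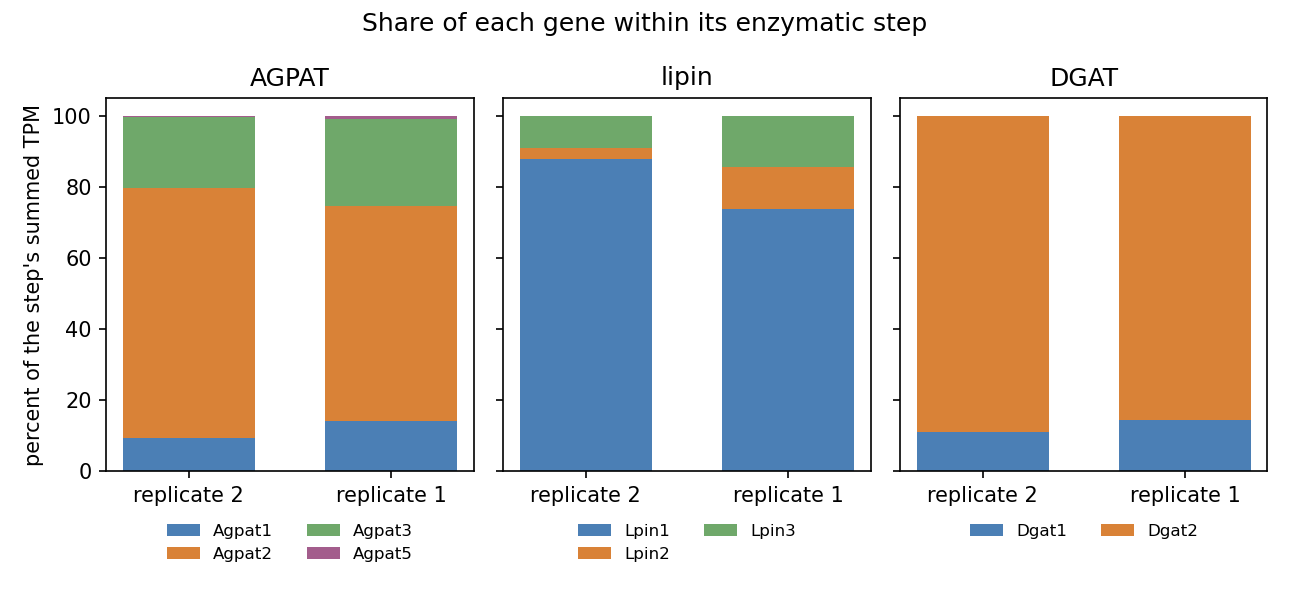
Percent of the summed TPM of each step taken by each gene, with replicate 2 on the left and replicate 1 on the right of each panel. Agpat2, Lpin1 and Dgat2 hold the largest share of their step in both libraries, and each share is higher in replicate 2.

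The transcripts of Agpat2 differed between libraries. The coding transcript Agpat2-201 took 79.24% of the gene's TPM in replicate 2 and 93.57% in replicate 1. Agpat2-202, annotated without a reading frame, took 17.9% in replicate 2 and 3.15% in replicate 1. Its level was 239.87 TPM in replicate 2 and 25.98 TPM in replicate 1, and the intervals that the authors' model gave, 219 to 253 TPM in replicate 2 and 19.5 to 32.0 TPM in replicate 1, did not overlap. Over Agpat2-201 alone the ratio of Agpat2 was 2.15. In GENCODE M21 the pair share exons 2 to 6 and differ only in exon 1, which in Agpat2-202 starts later and ends 95 bases earlier. The coding part of exon 1 of Agpat2-201 (GRCm38 chr2:26604029-26604210, minus strand) is shown with the bases absent from Agpat2-202 in capitals, since these bases set the pair of transcripts apart.
Agpat2-201 exon 1, coding part: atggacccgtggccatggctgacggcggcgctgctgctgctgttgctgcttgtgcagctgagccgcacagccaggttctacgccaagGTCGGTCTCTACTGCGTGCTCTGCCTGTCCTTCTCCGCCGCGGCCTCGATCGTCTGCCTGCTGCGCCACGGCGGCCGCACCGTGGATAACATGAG
The start codon lies in the lower-case stretch that both transcripts hold.

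The 3′ end of Agpat2 overlaps Egfl7, a gene of endothelial cells on the opposite strand, by 64 bases. Egfl7 was at 656.21 TPM in replicate 2 and 370.3 TPM in replicate 1. The libraries were stranded, and the sources used here do not say whether the counting used strand. Agpat1 overlaps Egfl8 on the opposite strand by 101 bases, and Egfl8 was at 4.21 TPM in replicate 2 and 5.37 TPM in replicate 1. The estimated counts of the 10 genes carried no model uncertainty from reads shared with other genes, other than an SD of 0.03 counts for Dgat2 in replicate 2.

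Promoter sequence was compared for successive enzymes of the pathway that differed in ratio, Agpat2 and Gpam. Of the 10 genes, 7 were matched in the RefSeq promoter table (GRCm38.p6), with 12 start sites that each span 250 bases before to 50 after the start. The Agpat2 window is chr2:26604368-26604667, and that of the Gpam start nearest to the counted transcript is chr19:55099428-55099727, both on the minus strand. Capitals mark GGGCGG, the GC box, on either strand, where CCGCCC is the other strand's form.
Agpat2 promoter: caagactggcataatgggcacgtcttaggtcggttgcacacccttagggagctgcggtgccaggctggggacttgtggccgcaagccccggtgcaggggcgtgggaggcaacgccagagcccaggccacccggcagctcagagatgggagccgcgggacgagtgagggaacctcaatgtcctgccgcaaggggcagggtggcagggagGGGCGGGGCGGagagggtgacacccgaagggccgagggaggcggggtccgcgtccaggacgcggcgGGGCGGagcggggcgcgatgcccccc
Gpam promoter: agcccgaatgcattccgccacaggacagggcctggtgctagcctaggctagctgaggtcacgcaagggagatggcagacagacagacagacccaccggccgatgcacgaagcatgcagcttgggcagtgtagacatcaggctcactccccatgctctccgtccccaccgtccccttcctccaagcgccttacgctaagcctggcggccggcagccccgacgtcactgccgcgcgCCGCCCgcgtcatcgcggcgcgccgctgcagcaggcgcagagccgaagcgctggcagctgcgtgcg
Agpat2 held 3 GC boxes, of which 2 overlap, and Gpam held 1 on the other strand. A GC box was in 7 of the 12 windows and in 35.7% of all 32851 promoter windows of the table. The CCAAT box (CCAAT) was in 3 of the 12 windows against 37.4% of all, the E-box CACGTG in 2 against 7.15%, and the TATA box TATAAA in 0 against 13.6%. Several windows belong to one gene, and a match is a description of the letters only.

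Lpin1 was the main lipin gene. Lipin-1 removes the phosphate from phosphatidate and is lost in the fatty liver dystrophy mouse (ENSMUSG00000020593.10, chromosome 12, 16535669 to 16610966, minus strand). Lpin1 had 105.9 TPM in replicate 2 and 60.36 TPM in replicate 1, from 25098 and 12192 counts, a ratio of 2.74 (2.68 to 2.80). Lpin3, a family member with the same activity (chromosome 2, 160880670 to 160906002), was at 10.87 TPM in replicate 2 and 11.75 TPM in replicate 1, a ratio of 1.51 (1.40 to 1.62). Lpin2, mutated in human Majeed syndrome (chromosome 17, 71182560 to 71249817), was at 3.81 TPM in replicate 2 and 9.83 TPM in replicate 1. Under TMM scaling Lpin2 was the only gene of the 10 with an interval wholly below 1, at a ratio of 0.698 (0.638 to 0.763), and was 1.43-fold higher in replicate 1. This depended on scaling, since Agpat5 and Gpam had log2 ratios of -0.60 and -0.29 with the total count. With the spike-ins they were -0.54 and -0.23. Lpin2 ran opposite to Lpin1: Lpin1 stood at 27.8 times Lpin2 in TPM in replicate 2 and at 6.14 times in replicate 1. Of the lipin TPM, Lpin1 took 87.8% in replicate 2 and 73.7% in replicate 1, Lpin2 took 3.16% in replicate 2 and 12.0% in replicate 1, and Lpin3 took 9.01% in replicate 2 and 14.3% in replicate 1.

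Lpin1 is spliced into forms with and without a small coding exon, lipin-1 beta and alpha. The tables hold 2 transcripts of Lpin1, and in GENCODE M21 both contain this exon. Lpin1-202 was 5626 nt long as counted and 5433 nt in M21, so its counted structure was not checked. Lpin1-201 took 93.58% of the gene's TPM in replicate 2 and 91.48% in replicate 1. The rest went to Lpin1-202, which in M21 has the same reading frame and another first exon. The forms that skip the exon, Lpin1-204 and Lpin1-207 of GENCODE M21, have no row in the tables, so the values cannot separate lipin-1 alpha from beta. The exon is exon 6 of 21 of Lpin1-201 and 99 bases long (GRCm38 chr12:16571164-16571262, minus strand), all in capitals because the skipping forms lack all of it.
Lpin1-201 exon 6: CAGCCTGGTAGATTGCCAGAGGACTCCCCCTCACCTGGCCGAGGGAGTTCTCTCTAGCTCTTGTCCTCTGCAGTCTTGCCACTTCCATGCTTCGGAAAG
For Lpin3, Lpin3-203 took 82.85% of TPM in replicate 2 and 73.91% in replicate 1. Lpin3-202, which skips 1 coding exon of 93 bases, was at 14.13% in replicate 2 and 0.94% in replicate 1, but the model's intervals of its TPM, 0.167 to 2.62 in replicate 2 and 0.00863 to 1.91 in replicate 1, overlapped. Lpin2-204, the leading Lpin2 transcript, took 78.65% of TPM in replicate 2 and 65.4% in replicate 1. By the model's posterior mean values these shares were 64.8% in replicate 2 and 60.12% in replicate 1, closer together.

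The last step was dominated by Dgat2, an enzyme of the endoplasmic reticulum and lipid droplets that is required for triglyceride storage in the mouse (ENSMUSG00000030747.4, chromosome 7, 99153658 to 99182719, minus strand). Dgat2 had 3725.55 TPM in replicate 2 and 1525.31 TPM in replicate 1, from 334422 and 116829 counts. It ranked 29th of all annotated genes in replicate 2 and 73rd in replicate 1. Its ratio of 3.81 (3.79 to 3.84) was the highest of the 10 genes and passed 2-fold under every scaling tried, by counts and by TPM. Among the 10 adipocyte markers the ratio lay above those of Cfd (2.04), Plin1 (3.46) and Pnpla2 (3.60). It lay below those of all the others, which ran from Retn (3.87) to Lep (17.2) and included Adipoq (5.60) and Fabp4 (5.91). Dgat1, which encodes an enzyme of another family for the same reaction (ENSMUSG00000022555.7, chromosome 15, 76502015 to 76511953, minus strand), had 465.72 TPM in replicate 2 and 258.8 TPM in replicate 1, a ratio of 2.39 (2.34 to 2.45). Dgat2 was 8.00 times Dgat1 in TPM in replicate 2 and 5.89 times in replicate 1, and it took 88.9% of the step's TPM in replicate 2 and 85.5% in replicate 1.

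Coding transcripts, in the narrow sense used here, were a minor part of the TPM of Agpat3 in both libraries and of Dgat1 in replicate 2. Here coding means the 23 of 56 transcripts with an APPRIS principal or alternative tag in GENCODE M21, a split chosen after the values were seen. For Agpat3 they took 33.2% of TPM in replicate 2 and 31.7% in replicate 1, but 81.2% of the counts in replicate 2 and 81.3% in replicate 1. The difference lies in short models: Agpat3-207, of 513 nt, took 43.91% of TPM in replicate 2 and 37.44% in replicate 1, and Agpat3-209, of 413 nt, took 17.6% in replicate 2 and 19.61% in replicate 1. Both are annotated as protein coding, with reading frames of 432 and 159 bases, but carry no APPRIS tag. The low share of Agpat3 is thus not a share of non-coding RNA. For Dgat1, the only coding transcript, Dgat1-201, took 37.04% of TPM in replicate 2 and 50.22% in replicate 1. The retained-intron transcript Dgat1-203 took 28.76% in replicate 2 and 19.04% in replicate 1. Dgat1-204, annotated as a processed transcript, took 9.49% in replicate 2 and was listed at 0 in replicate 1. Over coding transcripts the level of Dgat1 was 172.49 TPM in replicate 2 and 129.96 TPM in replicate 1, and its ratio was 2.07. With coding transcripts only, Dgat2 and Agpat2 kept the first places, and Agpat3 (116 ± 13.3 TPM) came after Gpam (180 ± 36.9 TPM) and Agpat1 (169 ± 4.82 TPM; SD, n = 2 each) in both libraries. The mean of Dgat1 (151 ± 30.1 TPM) was also below these, but its range overlapped both, and in replicate 2 Dgat1 was the highest of the 3.

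**Figure D4:**
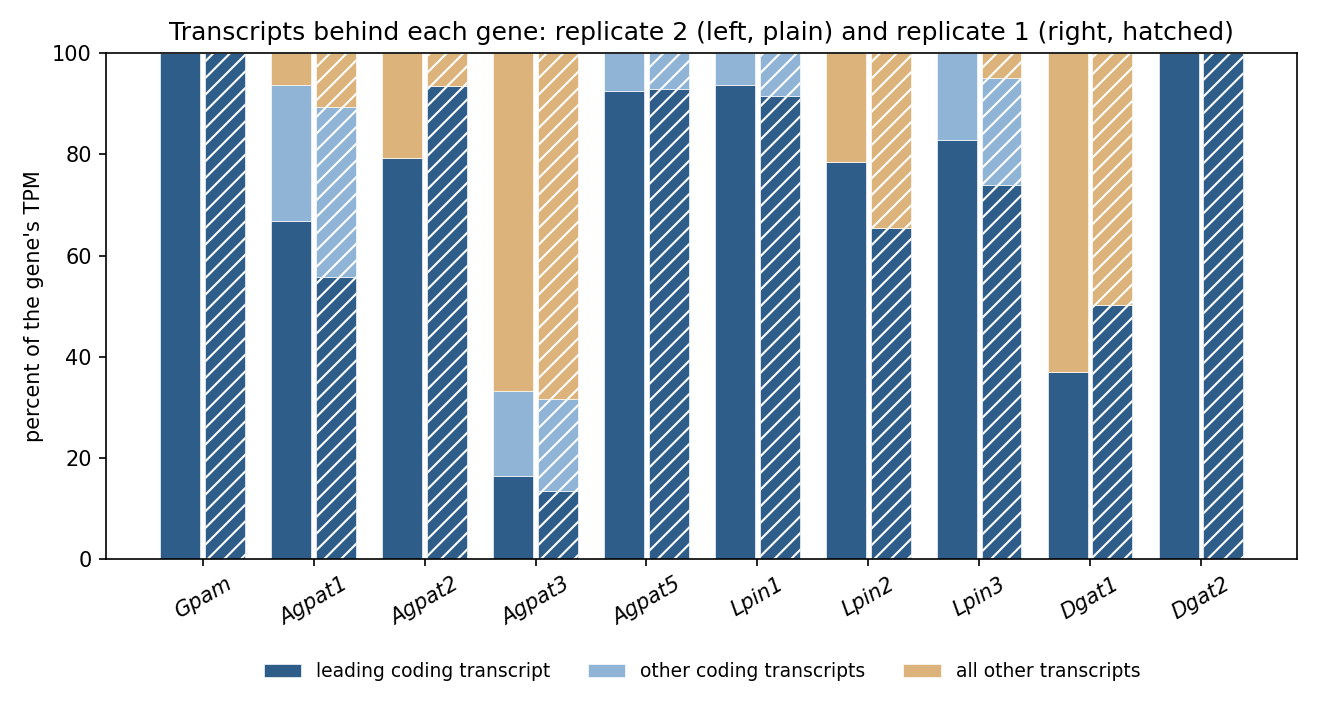
Percent of each gene's TPM taken by its leading coding transcript, its other coding transcripts and all other transcripts, with replicate 2 as plain bars on the left and replicate 1 as hatched bars on the right. Coding means a transcript with an APPRIS tag. Transcripts without the tag take most of the TPM of Agpat3, where most are short models annotated as protein coding, and of Dgat1 in replicate 2. Gpam and Dgat2 have 1 transcript each in the tables.

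The leading AGPAT and lipin transcripts were otherwise of the coding kind. Agpat1-208 took 66.91% of Agpat1 TPM in replicate 2 and 55.68% in replicate 1, and Agpat1-201, with the same reading frame and another first exon, took 26.82% in replicate 2 and 33.66% in replicate 1. Agpat5-201 took over 92% in both libraries. Gpam and Dgat2 have 5 and 6 transcripts in GENCODE M21, so their single rows say nothing of isoform use.

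Neighbouring reactions of lipid storage were read from related gene lists, leaving out genes whose scaled counts averaged below 10. At this filter, with TMM scaling, 4168 of all annotated genes were called over 2-fold apart, 41.0% of them higher in replicate 2. How many genes were compared at this filter is not given. The counts of calls in these lists thus have no share of all genes beside them. Of 5 genes that supply glycerol phosphate, 3 passed 2-fold in the direction of replicate 2 and 0 in that of replicate 1. Gpd1, which reduces the glycolytic intermediate dihydroxyacetone phosphate, was at 912.38 TPM in replicate 2 and 631.05 TPM in replicate 1, a ratio of 2.26. Pck1, the enzyme of glyceroneogenesis, was at 297.94 TPM in replicate 2 and 89.99 TPM in replicate 1, a ratio of 5.07. Aqp7, the glycerol channel of adipocytes, was at 170.91 TPM in replicate 2 and 35.57 TPM in replicate 1, a ratio of 7.45. Gpd1l, a relative of Gpd1, did not pass, at 21.03 TPM in replicate 2 and 24.71 TPM in replicate 1, a ratio of 1.33. The ratios of Pck1 and Aqp7 were higher than that of Dgat2, the highest of the 10 enzyme genes.

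Of 5 acyl-CoA synthetase genes, which activate the fatty acids, 1 was higher in replicate 2 and 1 in replicate 1. Acsl1, the most abundant, was at 406.21 TPM in replicate 2 and 227.18 TPM in replicate 1, a ratio of 2.78 (2.74 to 2.82). Acsl6 was the gene higher in replicate 1, at 0.05 TPM in replicate 2 and 1.47 TPM in replicate 1, and it is named after its values were seen. Acsl5 was at 13.59 TPM in replicate 2 and 17.87 TPM in replicate 1 and did not pass. Of 5 other GPAT and AGPAT genes, Gpat3 alone passed 2-fold. Agpat4 was at 7.81 TPM in replicate 2 and 19.75 TPM in replicate 1, a ratio of 0.634, and Lclat1 was at 4.37 TPM in replicate 2 and 13.2 TPM in replicate 1, a ratio of 1.03. Of the 5 lipin regulators and other phosphatidate phosphatases, none passed, with Plpp3 at 139.65 TPM in replicate 2 and 133.59 TPM in replicate 1 and the lipin phosphatase gene Ctdnep1 at 77.82 TPM in replicate 2 and 125.07 TPM in replicate 1. Plpp1 was at 33.73 TPM in replicate 2 and 50.76 TPM in replicate 1, and Plpp2 at 15.96 TPM in replicate 2 and 34.37 TPM in replicate 1.

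Of the monoacylglycerol and DGAT2 family acyltransferases, 3 of 5 had enough counts. Mogat2, which feeds diacylglycerol to the last step from monoacylglycerol, was at 62.7 TPM in replicate 2 and 24.02 TPM in replicate 1, a ratio of 4.20 (3.92 to 4.51). Mogat1 was at 21.54 TPM in replicate 2 and 27.6 TPM in replicate 1 and did not pass. Awat1 and Dgat2l6, named after their values were seen, had no counts in either library. Of 11 genes that draw phosphatidate or diacylglycerol into phospholipids, 2 were higher in replicate 2 and 1 in replicate 1. Chpt1, which makes phosphatidylcholine, was at 696.41 TPM in replicate 2 and 228.6 TPM in replicate 1, a ratio of 5.00, and Cds1 and Pcyt1b, named after their values were seen, were the others called, Cds1 higher in replicate 2 and Pcyt1b in replicate 1. Pcyt2, of phosphatidylethanolamine synthesis, was at 164.24 TPM in replicate 2 and 166.3 TPM in replicate 1, a ratio of 1.81. Cdipt, of phosphatidylinositol synthesis, was at 84.12 TPM in replicate 2 and 122.29 TPM in replicate 1, and Pgs1, of cardiolipin synthesis, at 34.88 TPM in replicate 2 and 44.71 TPM in replicate 1; neither passed.

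Of 4 lipid droplet assembly genes, 3 passed toward replicate 2 and 0 toward replicate 1. Bscl2, the seipin gene, was at 564.13 TPM in replicate 2 and 329.55 TPM in replicate 1, and Fitm2 was at 54.48 TPM in replicate 2 and 38.35 TPM in replicate 1. Ldaf1, whose protein partners seipin, did not pass, at 31.63 TPM in replicate 2 and 25.61 TPM in replicate 1, a ratio of 1.92 (1.78 to 2.07). Fitm1, named after its values were seen, was the third gene called, at 1.84 TPM in replicate 2 and 0.56 TPM in replicate 1. Of 11 regulators of lipid synthesis, 6 were higher in replicate 2 and 0 in replicate 1. They included Cebpa, at 325.16 TPM in replicate 2 and 207.09 TPM in replicate 1, Thrsp, at 2277.61 TPM in replicate 2 and 1479.13 TPM in replicate 1, and the insulin-signalling kinase gene Akt2, at 234.28 TPM in replicate 2 and 160.65 TPM in replicate 1. Srebf1, the sterol regulatory factor of lipogenic genes, was at 272.48 TPM in replicate 2 and 339.05 TPM in replicate 1 and did not pass, at a ratio of 1.36 (1.34 to 1.38). The median log2 ratios were 1.17 for glycerol phosphate supply, 1.27 for droplet assembly and 1.15 for the regulators, beside 0.65 for the 10 enzyme genes and 0.04 for all genes compared. These medians and every call in the related lists rest on TMM scaling, and no other scaling is given for them. With the total count or the spike-ins, the calls among the 10 enzyme genes fell from 4 to 1. Agpat2, Lpin1 and Dgat1 lost the call, at TMM ratios of up to 2.74. A change of scaling moves every gene's ratio by the same factor. Calls toward replicate 2 at ratios up to 2.74, in these and the marker lists, are thus lost as well. They include those of Gpd1, Bscl2, Fitm2, Cebpa, Thrsp, Akt2 and the adipocyte marker Cfd.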

How the data were processed

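The authors deposited, per the file headers, a gene table and a transcript table for each library on mm10, with expected counts, TPM, FPKM and each transcript's percent of its gene's TPM. Per the notes deposited beside the tables, the transcripts were those of GENCODE M4. The sources used here do not name the counting program. FPKM values as deposited were used only in an alternative. The deposited counts summed to 58687668 (replicate 2) and 54752739 (replicate 1), and annotated genes held 57500952 and 53601200. The mm9 tables were not used.

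Levels are mean ± SD of TPM (n = 2). Expected counts were rounded and scaled over annotated genes with TMM factors of edgeR (4.0.16, R 4.3.3), 0.837 in replicate 2 and 1.20 in replicate 1. Intervals are exact Clopper-Pearson 95% intervals of a gene's split between libraries; they cover counting error only, and libraries of 1 group give no p-value. The call rule was tried on simulated counts with counting error only and 200 genes changed, evenly in both directions. The libraries differed in far more genes, so the simulation does not test the scaling used here. Lists beyond the 10 genes were called at a mean scaled count of at least 10, with TMM scaling only. In each related list of neighbouring reactions, genes with a TPM of at least 10 in either library were named, at most 4 by mean TPM. Genes said to be named after their values were seen, and the cell type markers, were named outside this rule. Symbols were matched by identifier for 42462 genes. Coordinates and transcript structures are from GENCODE M21 (GRCm38, the same build as mm10), in which 54 of the 56 transcripts of the 10 genes had the same length. Lpin1-202 and Dgat2-201 differed. Members and lists were chosen with earlier results of these data known. Alternatives covered scaling (DESeq2 1.42.0, total count, spike-ins), count filters, TPM thresholds, pseudocounts, posterior mean values and, added after seeing the data, coding transcripts only.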

Additional observations from a re-analysis of the deposited data

How the results depend on the processing

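All 10 genes passed at a TPM of 0.5, an FPKM of 1 or a posterior mean TPM of 1, and 8 passed at a TPM of 10, without Agpat5 and Lpin2. With the total count the number of genes over 2-fold apart was 1 and the median log2 ratio of the 10 genes 0.13, and with the spike-ins they were 1 and 0.19. As a difference of log2(TPM + 1) or log2(TPM + 0.1), without an interval, the number was 2, Dgat2 and, lower in replicate 2, Lpin2, and the median was 0.032 and 0.028. DESeq2 size factors, count filters and posterior mean counts left 4. The direction of Gpam turned to -0.29 with the total count, -0.23 with the spike-ins and -0.42 with each TPM difference. In TPM, Agpat1 turned to -0.13 under both pseudocounts and Lpin3 to -0.10 and -0.11 (pseudocounts of 1 and 0.1). With the total count the median of all genes was -0.48 and with the spike-ins -0.42, and the share of called genes that were higher in replicate 2 moved to 16.5% and 18.9%, against 45.8% with TMM. A count filter of 500 called 2033 genes, against 3101. Averaged over the libraries, the Dgat2 share of its step was 93.0% by expected counts and 93.9% over coding transcripts, against 87.2%, and the Agpat2 share was 75.4% over coding transcripts, against 65.5%. Leaving out each library in turn gave shares of 60.4% to 70.5% for Agpat2, 73.7% to 87.8% for Lpin1 and 85.5% to 88.9% for Dgat2. Causes of these shifts were not tested. TPM rescaled over nuclear protein-coding genes raised the mean of Agpat2 to 1478. The lowest count among the 10 genes was 760. No paired analysis was possible because the 2 libraries belong to a single group.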
